A study of Mus musculus with 6 samples.

Results

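The tissue-specific basic helix-loop-helix (bHLH) transcription factors were followed in cultured mouse cerebellar granule neurons (CGNs) in which EZH2 was inhibited. The set holds 33 genes, chosen by symbol as tissue-specific bHLH factors with their E protein partners and a few bHLH repressors, out of 55341 genes in the count tables. Of these, 22 had enough reads to be tested, among 16729 genes tested in all, and the other 11 are described by their counts. The study compared 3 libraries from cultures given DMSO, the solvent, with 3 from cultures given GSK-126, a small-molecule inhibitor of the H3K27 methyltransferase EZH2. GSK-126 or DMSO was added at day in vitro (DIV) 3 and RNA was collected at DIV5 per the study's methods, while the sample labels name day 3 and cerebellar tissue. All cultures came from granule neuron precursors of CD1-IGS mice dissected at postnatal day 6 to 8, with litters pooled per replicate, isolated on a Percoll gradient and given cytosine arabinoside (AraC) at DIV2 against dividing non-neuronal cells. Because the RNA is from whole cultures, fewer cells of a type and less RNA per cell cannot be told apart.

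bHLH factors bind DNA as dimers, and their basic region reads the E-box, the letters CANNTG. Most tissue-specific members dimerise with the broadly expressed E proteins, ID proteins sequester the E proteins, and factors of the HES, HEY and BHLHE40 type repress their targets. In the cerebellum Atoh1 specifies granule neuron precursors and Ptf1a GABAergic neurons, and Neurod1 is required for granule neurons to differentiate and survive. H3K27me3, the mark that EZH2 writes, is known to cover many silent developmental regulators, bHLH genes among them.

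With GSK-126, Neurod1 fell by 28.0%, Nhlh2 fell by 27.8% and Bhlhe40 rose by 52.4% in the fit that takes the replicate number as a block, with Nhlh2 at the threshold of the test. The fit without the block, with groups as its only term, called none of the 22 members and none of the 16729 genes (0% called by the quasi-likelihood test of edgeR at a Benjamini-Hochberg adjusted p under 0.05). Neurod2, Bhlhe22, Bhlhe41, Olig1 and the 3 E proteins had at least 153 counts in every library and passed neither test. The factors of skeletal muscle and heart, Myod1, Myf5 and Hand2, had no or almost no reads in any library of either group.

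Replicate numbers were used as a block because libraries with the same number deviated together from their group means. Correlations across genes were 0.561, 0.634 and 0.487, against 0.00638 or less between libraries with different numbers. Deviations within a group sum to 0 for each gene, so positive correlations within numbers force lower ones between numbers. Reads on genes ranged from 7407189 to 13092763 per library. Levels are given as CPM, read counts scaled to a common library size with TMM factors, and 3 counts, taken as the lowest amount that can be told from 0, stand for 0.227 to 0.401 CPM. Replicate 2 of both groups stood apart from the other 4 libraries, with the highest summed CPM of the granule neuron markers of each group (6547 with DMSO and 5343 with GSK-126) and the lowest of the astroglia markers (2178 and 2115).

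The granule neuron label was checked against its markers, and all 10 (Pax6, Zic1, Rbfox3, Cbln1 and others) had reads, with a summed level of 4276 to 6547 CPM in the DMSO and 3420 to 5343 CPM in the GSK-126 libraries. Markers of other cells were present too. The 9 mesenchyme markers summed to 7793 to 10451 CPM with DMSO and 8977 to 11405 CPM with GSK-126, and the 8 astroglia markers to 2178 to 6941 and 2115 to 7366 CPM. Sums over different gene lists do not give shares of cells.

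The members' promoters were searched for E-boxes, the letters that bHLH dimers read. RefSeq promoters (GRCm38.p6) were matched by symbol for 25 of the 33 members, which gave 30 promoters, while Bhlhe22, Bhlhe40, Msc, Myod1, Olig1, Scx, Tcf15 and Tcf4 had no entry. An E-box lay in the 250 bases before the start in 15 of the 30 member promoters (50.0%) and in 66.2% of all 32851 promoters. CATATG lay in 2 member promoters, those of Neurod1 and Neurod2, and in 3.46% of all promoters. CAGATG, searched on both strands as CAGATG and CATCTG, lay in 4 member promoters, those of Neurod2, Nhlh1, Nhlh2 and Hand2, and in 14.4% of all. CAGCTG lay in 3 member promoters (13.0% of all) and CACGTG in 1, that of Bhlhe41 (6.02% of all). Each of these motifs is a form of CANNTG and overlaps it by construction, and a match is a run of letters, not a bound site. The member promoters had a median of 11.5 CpG dinucleotides and 59.0% G and C, against 6 and 52.4% over all promoters.

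The following sequences are the upstream bases of the called members, of Hes6 and Olig2, which had an unadjusted p under 0.05 with the block, and of the E proteins, as far as RefSeq lists them and outside the gene body of GENCODE M21, with Neurod2 added as the close relative of Neurod1. Each runs 5′ to 3′ on the strand of the gene, and capitals mark the E-boxes (CANNTG).
Neurod1, GRCm38.p6 chr2:79456752-79456886, minus strand: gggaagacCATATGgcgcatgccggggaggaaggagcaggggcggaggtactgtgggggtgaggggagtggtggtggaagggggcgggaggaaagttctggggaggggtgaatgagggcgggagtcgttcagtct
Neurod2, GRCm38.p6 chr11:98329649-98329895, minus strand: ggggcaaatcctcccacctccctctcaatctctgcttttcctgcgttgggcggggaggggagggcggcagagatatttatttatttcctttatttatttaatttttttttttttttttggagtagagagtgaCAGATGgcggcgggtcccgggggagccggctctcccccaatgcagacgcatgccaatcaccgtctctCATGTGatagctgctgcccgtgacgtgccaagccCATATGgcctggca
Nhlh2, GRCm38.p6 chr3:102009895-102010075, plus strand: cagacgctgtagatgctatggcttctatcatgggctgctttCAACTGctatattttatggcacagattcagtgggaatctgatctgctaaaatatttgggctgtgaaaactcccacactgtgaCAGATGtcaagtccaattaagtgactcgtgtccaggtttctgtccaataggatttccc
Hes6, GRCm38.p6 chr1:91414039-91414288, minus strand: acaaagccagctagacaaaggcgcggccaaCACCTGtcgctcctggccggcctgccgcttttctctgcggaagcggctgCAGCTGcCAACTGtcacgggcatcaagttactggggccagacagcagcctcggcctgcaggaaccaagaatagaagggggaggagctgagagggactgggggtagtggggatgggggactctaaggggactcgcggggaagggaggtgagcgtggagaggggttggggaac
Olig2, GRCm38.p6 chr16:91225300-91225456, plus strand: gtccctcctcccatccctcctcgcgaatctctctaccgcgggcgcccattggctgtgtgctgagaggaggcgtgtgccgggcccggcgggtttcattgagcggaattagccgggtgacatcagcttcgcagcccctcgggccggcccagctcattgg
Tcf3, GRCm38.p6 chr10:80433648-80433885, minus strand: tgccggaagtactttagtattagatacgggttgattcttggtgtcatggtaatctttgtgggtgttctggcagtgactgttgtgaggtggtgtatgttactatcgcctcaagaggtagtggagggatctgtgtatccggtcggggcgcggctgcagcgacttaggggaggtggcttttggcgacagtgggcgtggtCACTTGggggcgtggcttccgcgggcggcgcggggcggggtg
Tcf12, GRCm38.p6 chr9:72111872-72112069, minus strand: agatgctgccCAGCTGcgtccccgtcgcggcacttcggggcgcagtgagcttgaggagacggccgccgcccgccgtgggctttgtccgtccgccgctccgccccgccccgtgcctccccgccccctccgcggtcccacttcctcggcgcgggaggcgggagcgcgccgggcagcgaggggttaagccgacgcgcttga
Neurod1 and Neurod2 share the E-box CATATG, Neurod2 and Nhlh2 share CAGATG, and Hes6 and Tcf12 share CAGCTG. No E-box lies in the Olig2 stretch.

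Most members are compact genes. In GENCODE M21, 23 of the 33 (69.7%) have at most 2 merged exons, against 15.2% of protein-coding genes, while the E protein genes Tcf4, Tcf12 and Tcf3 have 36, 24 and 21. Within 500 kb of each other lie 3 pairs of members. Olig2 and Olig1 are 41.1 kb apart on chromosome 16, Ferd3l and Twist1 28.4 kb apart on chromosome 12, and Hes6 and Twist2 387 kb apart on chromosome 1. Ferd3l and Twist1 did not share a level, since Ferd3l had at most 2 counts in any library and Twist1 between 111 and 347.

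Per kilobase of exon, the granule neuron factor Neurod1 had the highest level of the members in the DMSO libraries, 254 ± 86.6 CPM per kb (SD, n = 3), followed by Neurod2 at 89.2 ± 16.4 and Bhlhe22 at 35.0 ± 2.91 CPM per kb. The E proteins followed, with Tcf4 at 17.8 ± 0.370 and Tcf3 at 17.4 ± 0.571 CPM per kb, which differ by less than their spread, and Tcf12 at 11.8 ± 1.22. Olig1 (12.6 ± 4.26), Hes6 (11.4 ± 4.34), Twist1 (10.6 ± 3.74) and Tcf12 differed by less than their spread on this scale. Bhlhe40 had 8.12, Bhlhe41 6.81, Nhlh2 4.98, Olig2 3.11, Lyl1 2.02 and Neurod6 1.56 CPM per kb, and every other member was under 1. These are merged exon lengths, 27382 bases for Tcf4, so a gene with many alternative exons is set low by them.

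**Figure D1:**
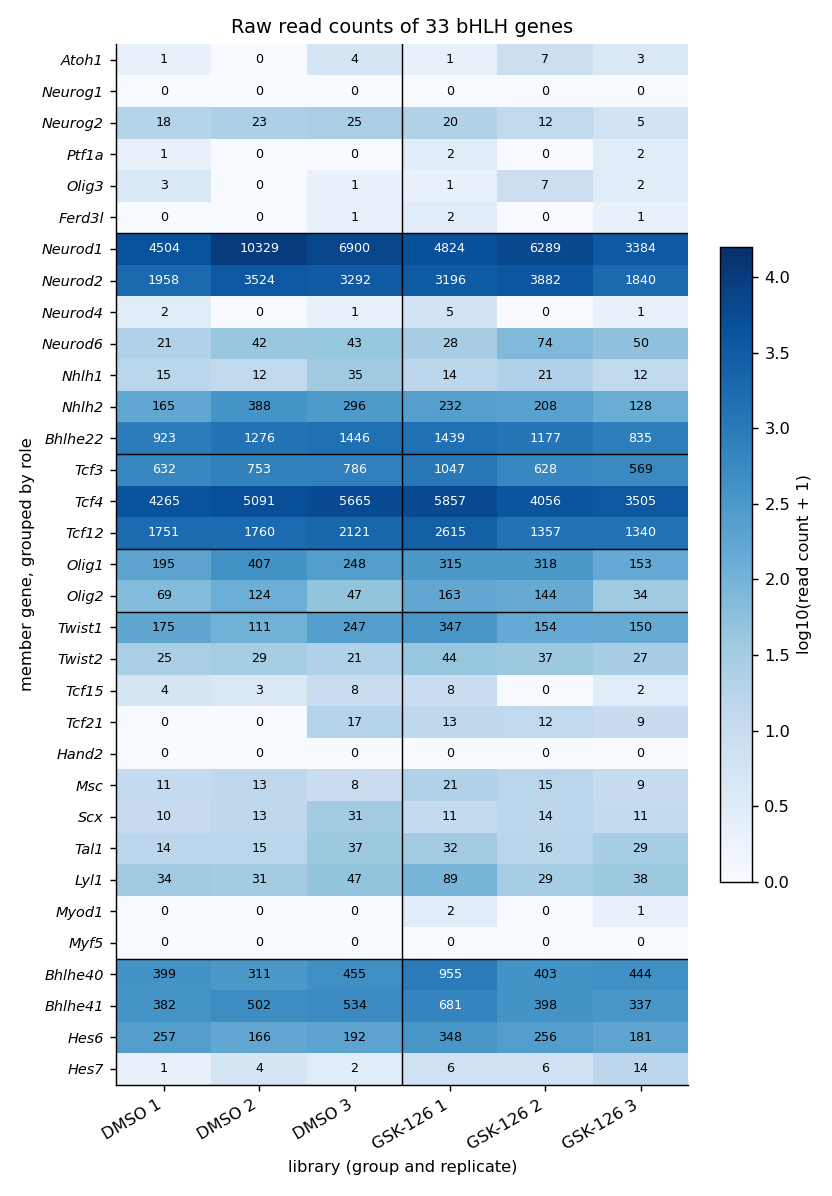
Raw read counts of the 33 bHLH genes (vertical axis, grouped by role) in each of the 3 DMSO and 3 GSK-126 libraries (horizontal axis), with the count printed in each cell. Neurod1, with 3384 to 10329 counts, stands at the top of the range, and Neurog1, Hand2 and Myf5 are at 0 in every library.

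Among the neuronal differentiation factors, 2 of the 6 tested members fell with the block, Neurod1 and, at the threshold, Nhlh2, and none rose, beside 5.09% of all genes called lower and 3.35% called higher. Neurod1 (ENSMUSG00000034701.9, GRCm38 chromosome 2, 79452521 to 79456751, minus strand) had 519.5, 963 and 599.7 CPM in DMSO replicates 1 to 3 and 366, 677 and 452 CPM in GSK-126 replicates 1 to 3. The groups overlapped, because replicate 2 was the highest library of both groups, but GSK-126 was below DMSO in every pair, at 0.704, 0.703 and 0.754 times. The mean fell from 694 ± 236 CPM with DMSO to 498 ± 161 CPM with GSK-126 (SD, n = 3 each). Without the block the fold change on the log2 scale was -0.48 (standard error 0.30), edgeR giving a Benjamini-Hochberg adjusted p of 0.953, and with it -0.47 (standard error 0.068) and 0.000111. The call stayed with each pair left out of the block fit (log2 fold changes of -0.51 to -0.44, adjusted p of 4.2e-05 to 0.00172, edgeR). Without the block, leaving out DMSO replicate 2 moved the log2 fold change to -0.16. A stretch of 201 bases of its exons is shared with Cerkl on the same strand.

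Of the 10 granule neuron markers, 5 fell with the block and 1, Tubb3, a neuronal tubulin, rose. Their sum, like Neurod1, was highest in replicate 2 and lower with GSK-126 in every pair. Gabra6, a GABA-A receptor subunit of mature granule neurons, fell by 1.19 on the log2 scale (edgeR block fit, adjusted p = 1.5e-07), Etv1 fell by 1.17 (1.5e-07), Rbfox3, which encodes NeuN, fell by 0.59 (2.7e-05) and Cbln1, a synaptic organiser, fell by 0.38 (0.00113). Whether the level of Neurod1 followed the share of granule neuron RNA was not tested. As a value free of library scaling, the ratio of Neurod1 to Neurod2 counts was 2.30, 2.93 and 2.10 with DMSO and 1.51, 1.62 and 1.84 with GSK-126. These ratios, chosen after the values were seen, did not overlap (two-sided exact permutation test, p = 0.1, which is the lowest value 3 against 3 libraries can reach).

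Neurod2 (ENSMUSG00000038255.6, chromosome 11, 98325415 to 98329648, minus strand), a relative of Neurod1 that acts in neuronal differentiation and synapse maturation, ranged from 226 to 329 CPM with DMSO and from 242 to 418 CPM with GSK-126. The groups overlapped and the pairs disagreed, at 1.07, 1.27 and 0.859 times. With the block its log2 fold change was 0.08 (standard error 0.087, edgeR with Benjamini-Hochberg adjustment, adjusted p = 0.658).

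Nhlh2 (ENSMUSG00000048540.8, chromosome 3, 102010076 to 102015492, plus strand, a single stretch once exons are merged), a bHLH factor of young neurons, had 19.0, 36.2 and 25.7 CPM with DMSO and 17.6, 22.4 and 17.1 CPM with GSK-126. DMSO replicate 1 lay within the range of the GSK-126 libraries, and the pairs were at 0.924, 0.619 and 0.665 times. Its log2 fold change was -0.51 (standard error 0.25, edgeR, adjusted p = 0.953) without and -0.47 (standard error 0.15, adjusted p = 0.0498) with the block. This call was at the threshold: DESeq2 with the block gave an adjusted p of 0.139, and edgeR block fits without pair 2 and without pair 3 gave 0.315 and 0.151, against 0.0111 without pair 1, all with Benjamini-Hochberg adjustment. The ratio of Nhlh2 to Neurod2 counts was 0.0843, 0.110 and 0.0899 with DMSO and 0.0726, 0.0536 and 0.0696 with GSK-126. These ratios, also chosen after the values were seen, did not overlap (two-sided exact permutation test, p = 0.1, the lowest value 3 against 3 libraries can reach). In pair 2 Neurod2 itself was at 1.27 times.

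The other neuronal factors passed no test. Bhlhe22, which is known to repress transcription in differentiating projection neurons, stayed within 106 to 126 CPM with DMSO and 109 to 127 CPM with GSK-126, and its log2 fold change with the block was -0.01 (standard error 0.081). Neurod6, a factor of excitatory forebrain neurons, had 21 to 43 counts with DMSO and 28 to 74 with GSK-126, and on the CPM scale was above its DMSO partner in 2 of 3 pairs. Nhlh1, the close relative of Nhlh2, had 12 to 35 counts with DMSO and 12 to 21 with GSK-126, too few for a direction. Neurod4, a factor of early neuronal differentiation, had at most 5 counts in any library.

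**Figure D2:**
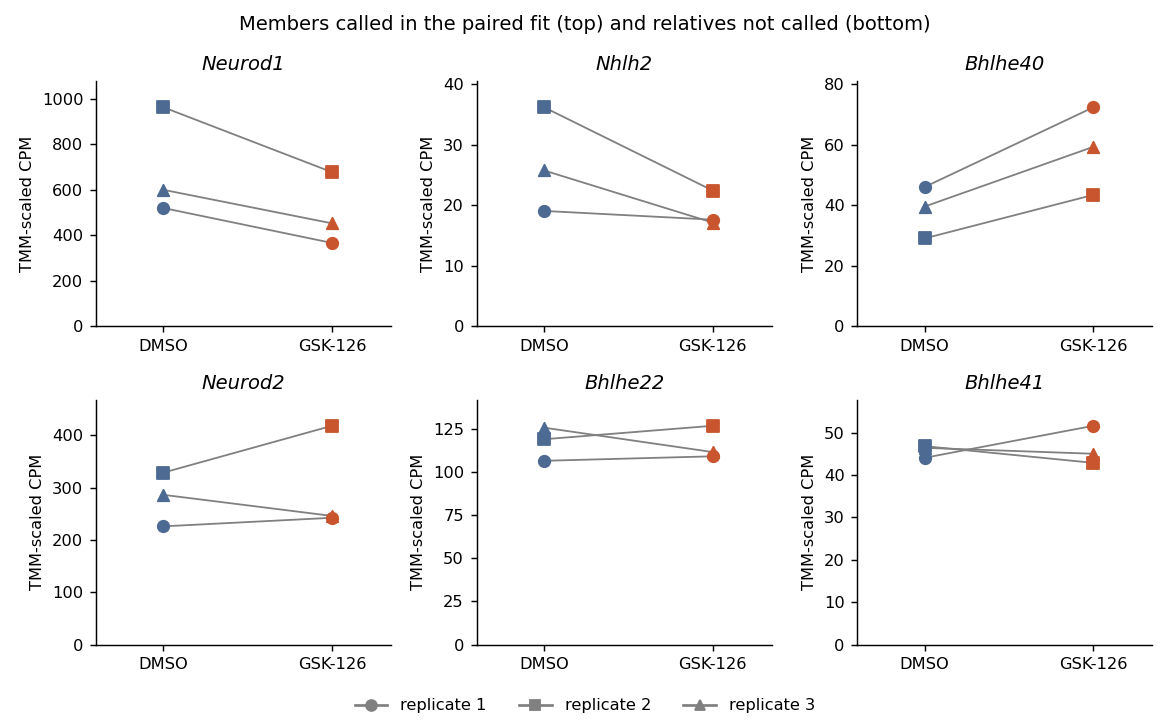
TMM-scaled CPM (vertical axis, from 0) of Neurod1, Nhlh2 and Bhlhe40 (top) and of Neurod2, Bhlhe22 and Bhlhe41 (bottom) in the DMSO and GSK-126 libraries, with a line joining the libraries that share a replicate number. All 3 lines fall for Neurod1 and rise for Bhlhe40, while replicate 2 stands highest for Neurod1 and lowest for Bhlhe40 in both groups.

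Of the 6 factors that specify neural progenitors, only Neurog2, a proneural factor, had enough reads to be tested. It had 18, 23 and 25 counts with DMSO and 20, 12 and 5 with GSK-126, or 2.08, 2.14 and 2.17 CPM against 1.52, 1.29 and 0.668 CPM. Every GSK-126 library was below every DMSO library on the CPM scale (two-sided exact permutation test, p = 0.1). Its log2 fold change with the block was -0.87 (standard error 0.46, edgeR with Benjamini-Hochberg adjustment, adjusted p = 0.290), so it passed no test across genes. Atoh1, the factor of granule neuron precursors, had 1, 0 and 4 counts with DMSO and 1, 7 and 3 with GSK-126. Olig3, a factor of dorsal progenitors, had 3, 0 and 1 against 1, 7 and 2 counts, with its highest library, as for Atoh1, in GSK-126 replicate 2. Ptf1a and Ferd3l had at most 2 counts in any library, and Neurog1 none.

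Markers of dividing granule precursors stood beside these low counts. Of that list of 8 genes, 7 were tested and none was called in either fit, and Mki67 and Top2a, both expressed in dividing cells, had 90.7 ± 18.2 and 102 ± 19.4 CPM (SD, n = 3) with DMSO. The summed level ranged from 376 to 501 CPM with DMSO and from 385 to 566 CPM with GSK-126. The GABAergic markers, the lineage in which Ptf1a acts, summed to 244 to 274 CPM with DMSO and 187 to 223 CPM with GSK-126, and 3 of 9 fell with the block. These were Slc32a1, the vesicular GABA transporter, which fell by 0.72 on the log2 scale (adjusted p = 0.00150, edgeR), and the GABA-synthesising enzymes Gad1 and Gad2. Slc32a1 kept its call without each pair in turn. Gad1 kept it only without pair 2 (adjusted p = 0.0278, edgeR block fit), and Gad2 in none of these fits (0.0604 to 0.127). With the block 6 of the 9 lay below 0 and 3 above, Pvalb at 0.51, Calb1 at 0.45 and Lhx5 at 0.18, none of them called.

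None of the 3 E proteins, the common partners of the tissue-specific factors, was called with or without the block. Tcf4 had 492, 475 and 492 CPM with DMSO and 444, 437 and 468 CPM with GSK-126. All 3 GSK-126 libraries lay below all 3 DMSO libraries, by a small margin (log2 fold change -0.11, standard error 0.068, adjusted p = 0.355 with the block, edgeR with Benjamini-Hochberg adjustment). Tcf3 had 72.9, 70.2 and 68.3 CPM with DMSO and 79.4, 67.6 and 76.0 CPM with GSK-126, and the groups overlapped. Tcf12 had 202, 164 and 184 CPM with DMSO and 198, 146 and 179 CPM with GSK-126, which also overlapped, though GSK-126 was slightly lower in every pair. With the block their log2 fold changes were 0.07 (standard error 0.089) and -0.08 (standard error 0.074).

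Olig1 and Olig2, neighbours on chromosome 16 and both factors of the oligodendrocyte lineage, passed no test across genes. Olig2 (ENSMUSG00000039830.9) had 7.96, 11.6 and 4.08 CPM with DMSO and 12.4, 15.5 and 4.54 CPM with GSK-126, from 34 to 163 counts. It was higher with GSK-126 in every pair, at 1.55, 1.34 and 1.11 times, but the groups overlapped, since replicate 3 was low in both. Its log2 fold change with the block was 0.43 (standard error 0.20, unadjusted p = 0.0443, adjusted p = 0.217, edgeR with Benjamini-Hochberg adjustment). Olig1 ranged from 21.6 to 37.9 CPM with DMSO and from 20.4 to 34.2 CPM with GSK-126, with a log2 fold change of -0.05 (standard error 0.13) with the block. The ratio of Olig2 to Olig1 counts was 0.354, 0.305 and 0.190 with DMSO and 0.517, 0.453 and 0.222 with GSK-126. It was higher with GSK-126 in each pair, though the groups overlapped (two-sided exact permutation test, p = 0.4). Markers of the oligodendrocyte lineage summed to 489.9 to 878 CPM with DMSO and 564 to 878 CPM with GSK-126, and 1 of 9 was called with the block, Mbp, a myelin protein, which rose by 0.28 on the log2 scale (adjusted p = 0.0408, edgeR). Mbp lost its call without pair 2 (adjusted p = 0.279, edgeR block fit). With the block 6 of the 9 lay above 0 and 3 below, Gpr17 at -0.59, Sox10 at -0.44 and Pdgfra at -0.11, none of them called.

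Of the 11 factors of mesoderm, muscle and blood, 7 were tested and none was called, and all but Twist1 had at most 89 counts in any library. Twist1, a factor of mesenchyme, was the most abundant, with 20.2, 10.3 and 21.5 CPM with DMSO and 26.3, 16.6 and 20.0 CPM with GSK-126, and the groups overlapped. Its relative Twist2 had 25, 29 and 21 counts with DMSO and 44, 37 and 27 with GSK-126, and on the CPM scale every GSK-126 library was higher (2.47 ± 0.566 against 3.64 ± 0.326 CPM, SD, n = 3; two-sided exact permutation test, p = 0.1). A stretch of 1477 bases of Twist2 exon overlaps Gm29100 on the opposite strand, so its few reads could be shared with that gene. With the block the log2 fold changes were 0.31 (standard error 0.16) for Twist1 and 0.57 (standard error 0.34) for Twist2, with adjusted p of 0.277 and 0.365 (edgeR).

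The mesenchyme markers stood beside the Twist genes: 4 of 9 rose with the block and none fell. These were Tagln and Acta2, contractile proteins of smooth muscle and myofibroblasts, at log2 fold changes of 0.52 and 0.43, Pdgfrb, a receptor of pericytes and fibroblasts, at 0.36, and the collagen gene Col1a2 at 0.22 (edgeR block fit, adjusted p of 0.000115, 0.000880, 0.00459 and 0.0498). The call of Col1a2 was at the threshold and was lost without pairs 1, 2 and 3 in turn (adjusted p of 0.199, 0.0797 and 0.114, edgeR block fit). Whether the Twist values followed the amount of mesenchyme RNA was not tested.

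Tcf21, a factor of mesenchyme around internal organs, had 0, 0 and 17 counts with DMSO and 13, 12 and 9 with GSK-126. The highest and the lowest libraries were thus both DMSO libraries, and no call was made with all pairs (adjusted p = 0.269, edgeR block fit). A call appeared without pair 3 (adjusted p = 0.00390, edgeR block fit), where both remaining DMSO libraries had no reads. Scx, the tendon factor, had 10 to 31 counts with DMSO and 11 to 14 with GSK-126, and Msc, a repressor of the muscle programme, had 8 to 13 and 9 to 21. Tal1 and Lyl1, which act in blood and endothelium, had 14 to 37 and 31 to 47 counts with DMSO and 16 to 32 and 29 to 89 with GSK-126, and both were higher on the CPM scale in every pair. Of the 10 endothelium and blood markers 4 were tested and none was called, with Cdh5, the endothelial cadherin, at 51.5 ± 10.3 CPM in the DMSO libraries and 45.6 ± 16.5 in the GSK-126 libraries (SD, n = 3), and the erythroid factor Gata1 at 0 in every library.

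Myod1 and Myf5, the factors that commit cells to skeletal muscle, had no counts with DMSO, and with GSK-126 Myod1 had 2, 0 and 1 and Myf5 none. A count of 0 allows up to 3 counts, or 0.227 to 0.401 CPM by library, so levels under that are not detectable at this depth. Hand2, the factor of heart and limb, had no counts in any library, and Tcf15, the somite factor, had at most 8. Structural genes of skeletal muscle did have reads: 6 of the 8 markers were tested, with summed levels of 12.7 to 43.8 CPM with DMSO and 10.6 to 35.5 CPM with GSK-126, and none was called.

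Bhlhe40 (ENSMUSG00000030103.11, chromosome 6, 108660629 to 108666925, plus strand), a repressor induced by many stimuli and part of the circadian feedback loops, rose with the block and was the only member called higher there. It had 46.0, 29.0 and 39.5 CPM with DMSO and 72.4, 43.4 and 59.3 CPM with GSK-126, from 311 to 955 counts. The groups overlapped, since GSK-126 replicate 2 lay below DMSO replicate 1, but the pairs were close to each other, at 1.57, 1.50 and 1.50 times. Without the block its fold change on the log2 scale was 0.61 (standard error 0.23, unadjusted p = 0.0302), edgeR giving a Benjamini-Hochberg adjusted p of 0.953, and with it 0.61 (standard error 0.10) and 0.000518. DESeq2 with the block gave an adjusted p of 2.6e-04. It stayed called without each pair in turn, with adjusted p of 3.1e-04 to 0.00414 (edgeR block fit) and log2 fold changes of 0.60 to 0.62. A stretch of 118 bases of its exons overlaps 0610040F04Rik on the opposite strand.

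Bhlhe41, the nearest relative of Bhlhe40 and also a repressor of the circadian loops, ranged from 44.1 to 46.8 CPM with DMSO and from 42.9 to 51.6 CPM with GSK-126. Its log2 fold change with the block was 0.02 (standard error 0.11). A stretch of 1280 bases of its exons overlaps Gm43909 on the opposite strand, so some of its reads could be shared with that gene. The ratio of Bhlhe40 to Bhlhe41 counts was 1.04, 0.620 and 0.852 with DMSO and 1.40, 1.01 and 1.32 with GSK-126. The ratio was higher with GSK-126 in each pair, though the groups overlapped (two-sided exact permutation test, p = 0.2). Markers of microglia and astroglia stood beside Bhlhe40. Of 8 microglia markers the complement genes C1qa and C1qb rose with the block, at log2 fold changes of 0.48 and 0.43 (adjusted p of 9.6e-04 and 0.0130, edgeR), and the list summed to 198 to 422 CPM with DMSO and 280 to 518 CPM with GSK-126. Of 8 astroglia markers S100b and Gdf10, both among the less abundant, rose at log2 fold changes of 0.56 and 0.72 (adjusted p of 0.00244 and 0.0146, edgeR), while Aqp4 and Slc1a3, at 1223 and 925 CPM with DMSO, were at -0.15 and -0.13 and were not called. The sum of the astroglia list went from 6941 to 7366 CPM in pair 1, from 2178 to 2115 in pair 2 and from 3902 to 3874 in pair 3, so it did not go 1 way. Replicate 2, which had the lowest level of Bhlhe40 in both groups, also had the lowest sum of both lists. Whether the rise of Bhlhe40 came with cells of these types was not tested.

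Hes6 (ENSMUSG00000067071.8, chromosome 1, 91411483 to 91414038, minus strand), which promotes neuronal differentiation by opposing Hes1, had 29.6, 15.5 and 16.7 CPM with DMSO and 26.4, 27.6 and 24.2 CPM with GSK-126. DMSO replicate 1 was the highest of all 6 libraries, while DMSO replicates 2 and 3 were the lowest, so the groups overlapped and pair 1 went against the others (0.890, 1.78 and 1.45 times). With the block the log2 fold change was 0.38 (standard error 0.16, unadjusted p = 0.0314, adjusted p = 0.176, edgeR with Benjamini-Hochberg adjustment), and without pair 1 it was 0.70 (adjusted p = 0.00719). Hes7, the oscillating repressor of somite formation, had 1, 4 and 2 counts with DMSO and 6, 6 and 14 with GSK-126, higher in each GSK-126 library but too few to be tested, and 234 bases of its exons overlap 9130213A22Rik on the opposite strand.

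**Figure D3:**
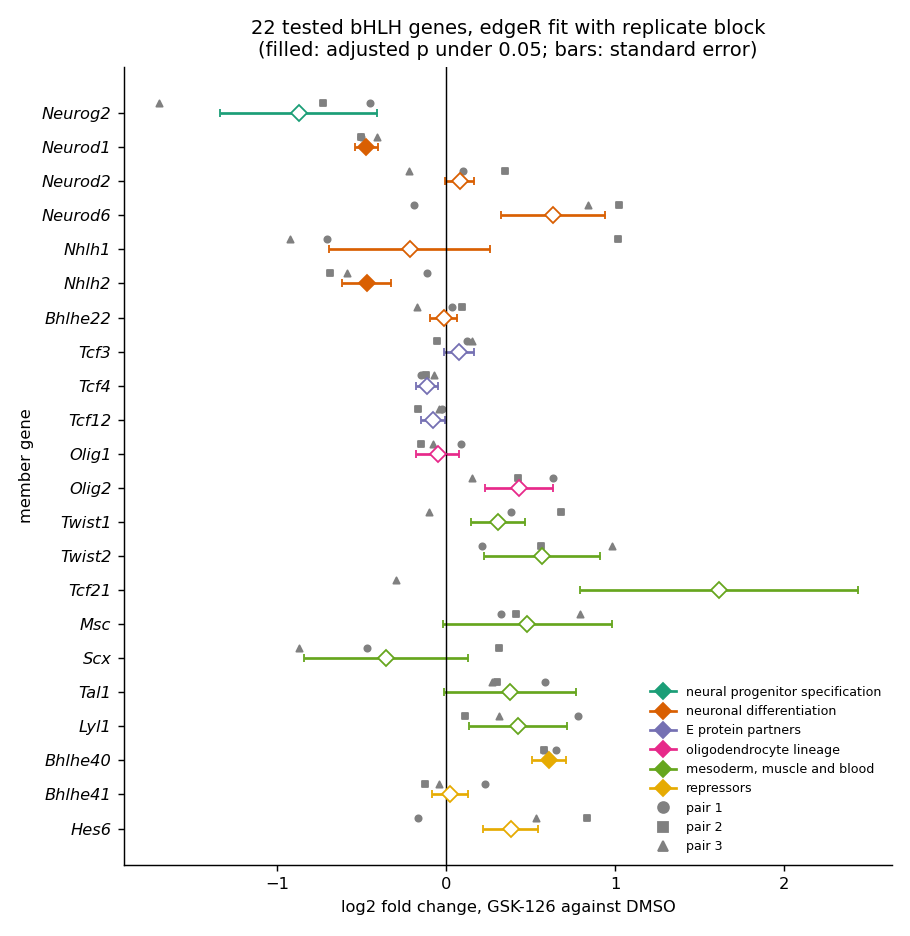
Log2 fold change of the 22 tested bHLH genes, GSK-126 against DMSO (horizontal axis), in the edgeR fit with the replicate block, with bars of 1 standard error, filled points for an adjusted p under 0.05 and small markers for the 3 pairs. Neurod1 and Nhlh2 lie at -0.47 and Bhlhe40 at 0.61, and the widest bars belong to the genes with the fewest counts. Tcf21 has no marker for pairs 1 and 2, whose DMSO libraries were at 0.

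Over the members as a whole few calls were made, and each count is set beside the share over all genes tested. Without the block, an unadjusted p under 0.05 was reached by 1 of 22 members, Bhlhe40, and by 3.98% of all genes (edgeR). DESeq2 without the block called 20 genes higher and 1 lower at an adjusted p under 0.05, with no member among them. With the block, 1 of 22 members was called higher, beside 3.35% of all genes, and 2 lower, beside 5.09% of all genes. In either direction these were 3 of 22 members (13.6%) and 8.44% of all genes. An unadjusted p under 0.05 in the block fit was reached by 5 of 22 members, those called with Hes6 and Olig2, and by 21.5% of all genes. DESeq2 with the block called 2 of 22, Bhlhe40 and Neurod1, and 5.97% of all genes. It gave no adjusted p to Neurog2, Neurod6, Nhlh1, Olig2, Twist2, Tcf21, Msc, Scx, Tal1 and Lyl1. These members, and any other gene without an adjusted p, were not assessed by it and stand as not called in these shares.

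The groups did not overlap for 3 of the 22, Neurog2, Tcf4 and Twist2, and for 9.44% of all genes, and the 3 members called with the block were not among them. All 3 pairs went up for 6 of 22 members (Bhlhe40, Lyl1, Msc, Olig2, Tal1 and Twist2), beside 19.5% of all genes, and down for 5 (Neurod1, Neurog2, Nhlh2, Tcf12 and Tcf4), beside 22.8% of all genes. The median log2 fold change with the block was 0.08 over the 22 members and -0.0056 over all genes tested, with 13 members above 0 and 9 below. By role it was -0.12 for the 6 neuronal factors tested, -0.08 for the 3 E proteins and 0.19 for the 2 Olig genes, which stood at -0.05 and 0.43. For the 7 mesoderm, muscle and blood factors tested it was 0.42, the value of Lyl1, and for the 3 repressors tested 0.38, the value of Hes6. Neither of these genes was called, and medians over so few genes do not show a shift of a role. Since filtering kept only members with enough reads, these medians leave out the 11 with few or none.

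**Figure D4:**
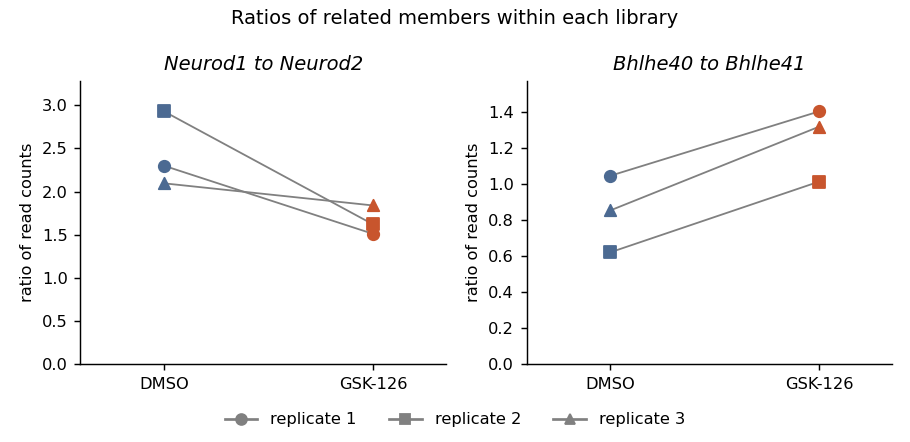
Ratios of the read counts of related bHLH genes within each library (vertical axis, from 0) in the DMSO and GSK-126 groups, with lines joining libraries of the same replicate number. The Neurod1 to Neurod2 ratio lies between 2.10 and 2.93 with DMSO and between 1.51 and 1.84 with GSK-126. The Bhlhe40 to Bhlhe41 ratio lies between 0.620 and 1.04 with DMSO and between 1.01 and 1.40 with GSK-126, so the groups overlap.

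The regulators that act on bHLH dimers were read from the same fits. Of 11 ID, HES and HEY genes, 8 were tested, 2 rose with the block and none fell. Over all genes tested 3.35% were called higher and 5.09% lower with the block, the shares to set beside the counts of this and every other list. Id2 and Id4, which sequester E proteins, rose at log2 fold changes of 0.45 and 0.33 (adjusted p = 0.00536 and 0.0285, edgeR block fit). Id3 and the repressor Hey1, with 129.6 and 79.3 CPM in the DMSO libraries both more abundant than Id4 at 60.3, had log2 fold changes of 0.19 and -0.21 and were not called. The median of the 8 was 0.30, and Helt had no reads. Id2 kept its call without pair 1 and without pair 3 but not without pair 2 (adjusted p = 0.0626), and Id4 kept it only without pair 3.

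Of 16 genes known as targets of proneural factors, 12 were tested, 3 rose and 4 fell with the block. St18, a zinc finger factor of neuronal differentiation, fell by 0.68 on the log2 scale, Cbfa2t3, a co-repressor, fell by 0.45, and the homeobox gene Barhl2 fell by 0.45 (adjusted p of 4.1e-05, 0.00238 and 0.00892, edgeR block fit). Rnd2, a small GTPase of neuronal migration, rose by 0.37 (0.00769). Barhl2 lost its call without pair 3 (adjusted p = 0.0544, edgeR) and Rnd2 without pair 1 (0.0705). The other calls were rises of Barhl1 and Dcx and a fall of Eomes, and the median of the 12 was -0.18. Of 21 other bHLH genes of the same class, 7 were tested and none was called. With the block 5 lay above 0 and 2 below, with a median log2 fold change of 0.15. The most abundant of them, Atoh8, had 23.3 ± 7.28 CPM (SD, n = 3) with DMSO and 19.9 ± 5.02 with GSK-126, and Ascl3, Neurog3, Hand1, Mesp1 and Msgn1 had no reads in any library. Atoh7, the relative of Atoh1 that specifies retinal ganglion cells, had 3.67 ± 0.189 CPM in the DMSO libraries and 2.00 ± 0.259 in the GSK-126 libraries (SD, n = 3), with a log2 fold change of -0.87 (adjusted p = 0.147, edgeR block fit).

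**Figure D5:**
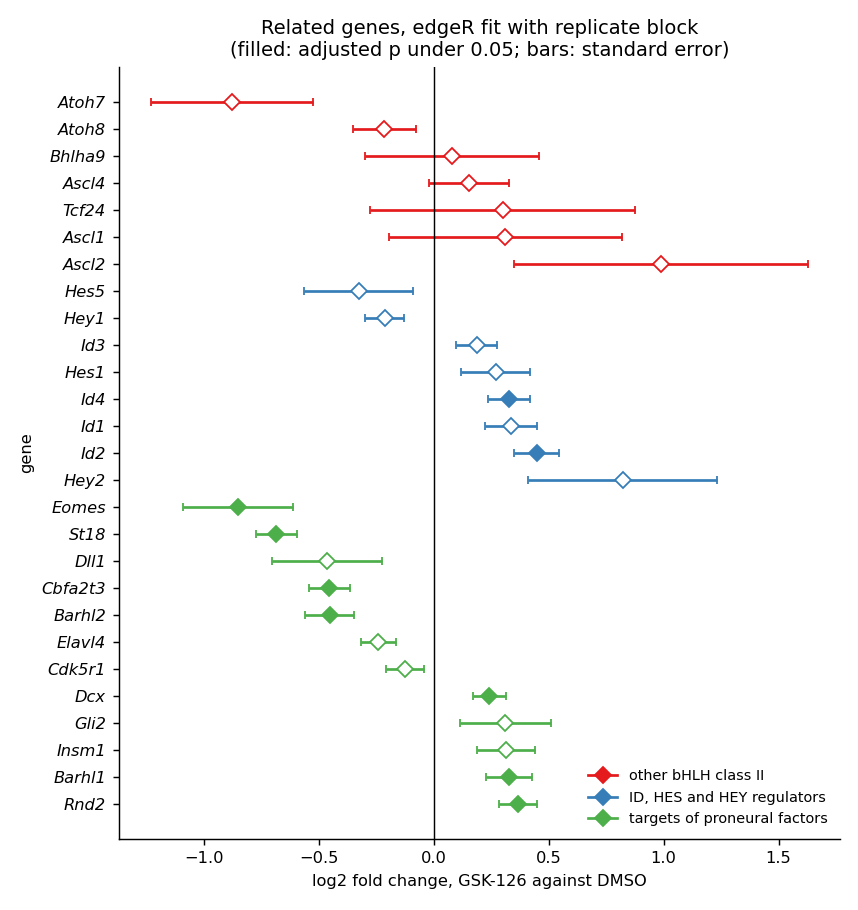
Log2 fold change, GSK-126 against DMSO (horizontal axis), of related genes (other bHLH genes, ID, HES and HEY regulators and targets of proneural factors) in the edgeR fit with the replicate block, with bars of 1 standard error and filled points for an adjusted p under 0.05. Filled points lie on both sides of 0 among the targets, from Eomes at -0.85 to Rnd2 at 0.37, and only above 0 among the ID, HES and HEY regulators (Id2 and Id4).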

How the data were processed

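RNA-seq of 6 CGN culture libraries, 3 per group, was read from the authors' deposited tables of raw counts per gene, which carry no normalization. Per the labels and methods, the authors used Trimmomatic 0.38 for trimming, STAR 2.7.2b for alignment to GRCm38.p4 (mm10) and HTSeq for counting on exons. The strand setting and the Gencode release are not given in the sources used here, so reads of overlapping antisense genes cannot be told apart. Poly(A) RNA was sequenced without molecular identifiers, so a limit from counts covers counting error only. All 55341 symbols match GENCODE M21, which gave coordinates and exon lengths. Lines that name no gene, 58.7% to 60.7% of reads per library, were left out. Gene counts were 7407189 to 13092763 per library. Groups and replicate numbers come from the sample titles. A replicate is CGNs of pooled litters. Without the block, p-values measure the spread between such cultures. With the block, they measure the spread of the difference between treatments within the pairs. No library copied another (chi-square per degree of freedom of 12.0 or more within a group). Counts were tested in R 4.3.3 with edgeR 4.0.16 (TMM, filterByExpr, quasi-likelihood test, Benjamini-Hochberg adjustment over 16729 genes, threshold 0.05) on the group alone and with the replicate number as a block. The fit on the group alone was set as the main fit and the block as an alternative. The biological coefficient of variation was 24.0% without and 9.74% with the block. Same-numbered libraries deviated together in all 3 pairs, which is why blocked values are printed; the labels give the numbers but do not say what they share. DESeq2 1.42.0, other scalings, other filters, each library and each pair left out were the alternatives. Single values had an exact permutation test. The fits were tested on simulated data. The members and lists were chosen with earlier results of these data known. Of the members, values per library are given for those called or with an unadjusted p under 0.05 in either fit, for Neurod1 and the E proteins, and for a few with low counts or groups apart, added after their values were seen. Up to 4 genes of a list are named by the smallest p among those called with the block, otherwise the most abundant. Where others are named, they were chosen after their values were seen. No adjusted p over a list and no set test was used.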

Additional observations from a re-analysis of the deposited data

How the results depend on the processing

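Without the block, edgeR called no gene, no member and no gene of the 3 related lists. The block takes same-numbered libraries as pairs, although the labels do not say what they share. It raised the calls to 561 higher and 851 lower over all genes, 1 and 2 over the members and 5 and 4 over the related lists. Block fits without pair 1, 2 and 3 called 417, 337 and 558 genes higher and 671, 496 and 719 lower, with 2, 1 and 2 members higher and 2, 1 and 1 lower, and 3, 1 and 5 related genes higher and 4, 4 and 2 lower. The block with DESeq2 called 372 and 627 genes, 1 and 1 members and 2 and 3 related genes. DESeq2 without the block called 20 genes higher and 1 lower, and edgeR without a filter 9 and 1. Without the block, the fits with 1 library left out and those with upper-quartile scaling, library totals or at least 10 counts in every library called 0 genes. Members near 0 changed sign. Bhlhe22 went to 0.065 in the block fit without pair 3, 0.019 with upper-quartile scaling and with library totals, and 0.0014 with at least 10 counts in every library. In block fits Bhlhe41 went to -0.071 without pair 1, and Neurod2 to -0.056 and Olig1 to 0.010 without pair 2. Nhlh1, with 12 to 35 counts and at -0.28 without and -0.22 with the block, was not near 0. It also changed sign in block fits, to 0.021 without pair 1 and 0.17 without pair 3. With 1 library left out, log2 fold changes ranged from -0.069 to 0.040 for Bhlhe22, -0.045 to 0.097 for Bhlhe41, -0.18 to 0.26 for Neurod2, -0.57 to 0.20 for Nhlh1, -0.28 to 0.25 for Olig1, -0.64 to 0.080 for Scx, -0.0014 to 0.81 for Tal1 and -0.16 to 0.057 for Tcf12. The cause was not tested. Of the 27 genes of the 12 lists called with the block, 12 kept the call without each pair in turn: St18, Cbfa2t3, Rbfox3, Cbln1, Gabra6, Etv1, Slc32a1, S100b, Pdgfrb, Acta2, Tagln and C1qa. The block changed the call of no member but Bhlhe40, Neurod1 and Nhlh2. Of the 22 tested members, 10 had under 100 counts in some library, which limits what can be detected.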
